A study of Oryza sativa with 10 samples.

Results

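The comparison described here is that of whole rice seedlings with rice roots, and it rests on 4 of the 10 arrays of a survey of 5 tissues. The 4 arrays were taken by their tissue labels: 2 seedling arrays from plants 10 days old and 2 root arrays from plants 7 days old. All 57194 probe sets of the Affymetrix rice array that are no controls entered, and 30012 of them, 52.5%, reached a signal of 100 on at least 2 of the 10 arrays and were tested. All plants were untreated Zhonghua 11, a japonica cultivar of Oryza sativa, raised in a phytotron with warm days and cooler nights. The labels give no mutation or treatment for any group. The other tissues of the survey were leaf, taken like the root from plants 7 days old, and embryo and endosperm taken 6 days after flowering. They entered the common estimate of spread, on which every standard error below rests, and leaf is used beside root below. Such an error can understate the spread of the root arrays where these disagree. The labels do not say whether the root was kept in the seedling sample, and age and organ differ together between seedling and root, so that the effects of age and organ cannot be told apart. The labels call the 2 arrays of a tissue biological repeats and give no further detail, so the spread is that between these samples.

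A young rice seedling consists of a shoot, which builds chloroplasts and fixes carbon, and a root, which takes up water, nitrate, ammonium, phosphate, potassium, iron and silicon. Rice root cells carry separate importers and exporters for many of these nutrients, and a suberized and lignified endodermis seals the path between cells. Chloroplast genes are switched on in the shoot by light and by the GOLDEN2-LIKE regulators, while expansins loosen the walls of growing cells in both organs.

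The root arrays differed from each other more than the seedling arrays did. The Pearson correlation of log2 signals over the tested probe sets was 0.905 between the root arrays and 0.972 between the seedling arrays. The root arrays were at least 2-fold apart on 25.0% of the tested probe sets, against 5.82% for the seedling arrays. The ratio of the 3′ to the 5′ probe set of Gapdh, which rises as RNA or its copy shortens, was 2.04 on root array 1 and 24 on root array 2. It was 11.3 and 9.45 on the seedling arrays, between those of the roots, and 26.3 and 29.1 on the leaf arrays, above all of these. Each seedling value was therefore set against each root array on its own as well as against both.

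The labels were checked with marker genes. The summed signal of the 7 shoot markers found, out of 9 fixed, was 76509 and 93486 on the seedling arrays, 26913 on root array 1 and 7918 on root array 2. Leaf gave 100640 and 90046. The summed signal of the 6 root markers found, out of 8, was 41254 and 45328 on the root arrays, 12018 on seedling array 1, 5444 on seedling array 2, and 1186 and 1042 on the leaf arrays. Of the root markers found, PT11, a phosphate transporter known from roots with fungal partners, reached at most 38.0 on a root array and was not tested. Of the seed genes, the glutelins GLUA-1 and GluC and the albumin RA17 stayed at or below 14.6 on all 4 arrays. The globulin gene GLB read 2870 and 2575 in seedling against 4401 and 4713 in root and was under 2-fold lower. GBSS1, a starch synthase, read 88.4 and 138 against 33.2 and 38.9 and was called higher (adjusted p 0.0111), a call lost without seedling array 2 (adjusted p 0.119). By these sums seedling array 1 was the higher of the pair for root markers and the lower for shoot markers. Root array 1 held the higher summed shoot signal of its pair. Single shoot markers differed: RCAA1, at 1275 and 1487, and GLK2, at 54.9 and 99.0, were higher on root array 2. CAB2R, RBCS, GLN2, LFNR1 and CHLH were higher on root array 1. The part these differences have in the results below was not tested.

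Called differences, here an adjusted p under 0.05 and at least 2-fold, covered 19.0% of the tested probe sets. Of the 30012, 3324 were called higher in seedling, 11.1%, and 2370 were called lower, 7.9%. The median log2 difference over all tested probe sets was 0.01. On every called probe set both seedling arrays lay on one side of both root arrays, as they did, upward, on 31.4% and, downward, on 29.7% of all tested probe sets.

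Most calls held at 2-fold against each root array taken alone. Of the 3324 called higher, 2892, or 87.0%, were at least 2-fold higher than either root array. Another 278 were 2-fold higher than root array 1 but not root array 2, and 154 the other way. Of the 2370 called lower, 2040, or 86.1%, were at least 2-fold lower than either root array. For all tested probe sets the seedling mean was 2-fold higher than root array 1 on 19.8% and than root array 2 on 17.7%, and 2-fold lower on 16.3% and 14.3%. These counts come from the arrays that made the calls and are a description.

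The choice of root array mattered more to the test. With root array 1 alone, 3895 probe sets were called higher and 2792 lower, and with root array 2 alone 3164 and 2136. Called higher in both fits were 1914, which is 49.1% of the first list and 60.5% of the second. Called lower in both were 1244, or 44.6% and 58.2%. Opposite calls from the 2 root arrays were rare, at 2 and 18 probe sets. Leaving out a seedling array moved the counts further: without seedling array 1 they were 1819 higher and 1330 lower, and without seedling array 2 they were 1101 and 779. In such a fit the remaining array is assumed to vary like the other tissues.

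**Figure D1:**
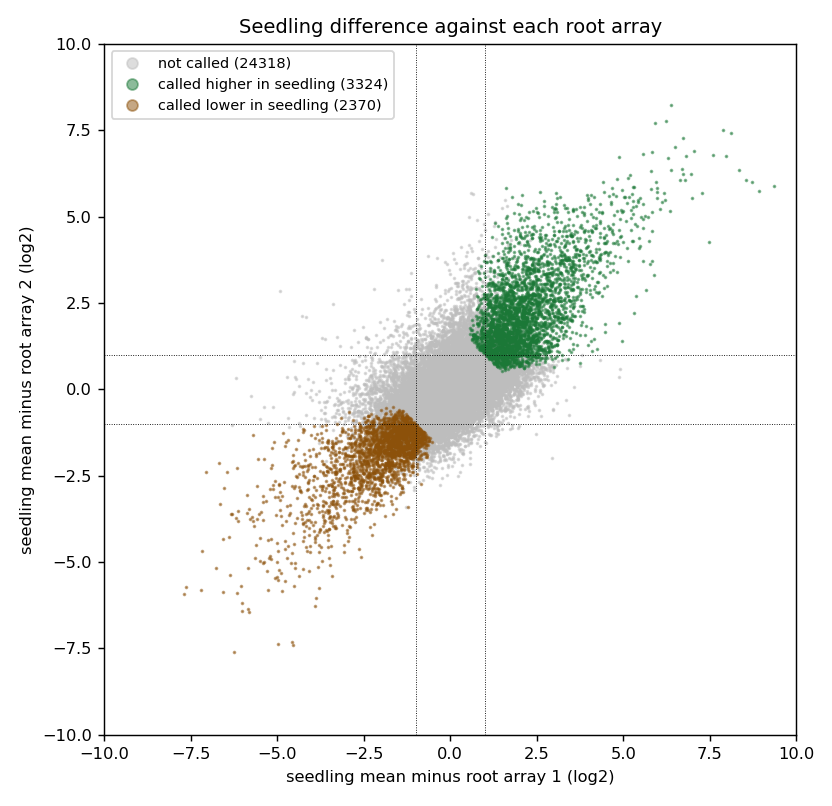
Each point is a tested probe set, with the seedling mean minus root array 1 on the x axis and minus root array 2 on the y axis, both in log2 units. The 3324 probe sets called higher (green) and the 2370 called lower (brown) lie in the corners where both differences have the same sign, and dotted lines mark 2-fold.

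The rule for naming genes gave 142 called genes, of which 90 are described below. Those 90 were picked after their values, and their calls with an array left out, had been seen, and mostly fragile ones were dropped. Of the 142, 71 kept their call in every setting tried apart from a test against 2-fold, and leaving out seedling array 2 alone ended 67 calls. The share that kept it was 63 of the 90 described and 8 of the 52 not described, so the genes below look steadier than the called genes as a whole.

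Of the named genes with the largest difference that both root arrays shared, the 10 highest in seedling included a sugar transporter, wall proteins, regulators and redox proteins. BURP16, of the plant BURP-domain proteins, had signals of 17432 and 17550 in seedling against 141 and 146 in root, a log2 difference of 6.78 ± 0.49 (SE, adjusted p 4.59e-05). GRXC1, a glutaredoxin of the plant-specific CC class, read 4093 and 6542 against 41.0 and 24.4, and its relative GRXC15 read 2011 and 2753 against 61.9 and 48.6. Both groups of arrays stood well apart on these genes.

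The germin-like gene GER5, from a family of extracellular defence proteins, showed the widest fitted gap of these genes but an uneven root. Its signals were 12904 and 14220 in seedling, 19.9 on root array 1 and 188 on root array 2, a log2 difference of 7.31 ± 0.62 (adjusted p 0.000108). The 2 chitinase genes chia4a and Cht4, whose enzymes cut fungal wall polymer, went the same way. chia4a read 2681 and 2615 against 26.2 and 41.0, and Cht4 read 2029 and 2032 against 22.4 and 87.6. A further germin-like gene, GER8, read 374 and 639 against 52.9 and 52.8 (log2 difference 2.88 ± 0.58, adjusted p 0.00728), from a probe set that can bind related transcripts. The GER8 call was lost without seedling array 2, at an adjusted p of 0.0846.

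SWEET1B, a sugar transporter and one of the 10, read 682 and 878 in seedling and only 3.29 and 3.89 in root. SWEET11, which moves sucrose out of cells and was named from the sugar list, read 1140 and 1146 against 93.4 and 96.8, a log2 difference of 3.38 ± 0.25 (adjusted p 5.43e-05), while SWEET4 of the same list was called lower, at 8984 and 7649 against 15746 and 18322. The SWEET4 call was lost without either seedling array or root array 2, at adjusted p values from 0.0714 to 0.172. ER2, a receptor kinase of the ERECTA family that acts in shoot growth, read 1881 and 1783 against 45.0 and 44.8. Its log2 difference of 4.92 ± 0.27 was the same against either root array. PMEI8, an inhibitor of pectin methylesterase, read 1812 and 2353 against 67.9 and 34.3, and IAA14, an auxin-response repressor, read 884 and 746 against 10.2 and 6.91.

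Of 34 gene lists, the 4 chloroplast lists had the highest medians in the fit with both root arrays. Against root array 1 alone the photoreceptor and clock list, which also holds the chloroplast regulators GLK2 and GLK1, was highest, at 1.72. Over all 16420 genes tested with 1 probe set each, 1987 were called higher and 1510 lower, with a median of 0.00. The list counts here and below are to be read beside these. Of 16 genes of chlorophyll and tetrapyrrole synthesis, 11 were called higher, none lower, and the median log2 difference was 1.97. For the Calvin cycle and photorespiration, 8 of 11 genes tested were called higher and 1, GLO4, lower, with a median of 2.02. For photosystems and light harvesting 4 of 8 were called higher and none lower, with a median of 3.02, and for photosynthetic electron transport 4 of 8 higher and 1 lower, with a median of 1.82. Of the 4 lists together, 2 genes were thus called lower. Fewer cells of a type and less RNA per cell cannot be told apart in such bulk samples.

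The regulators GLK2 and GLK1, transcription factors that switch on chloroplast genes, were low on both root arrays. GLK2 read 3177 and 5158 in seedling, 54.9 and 99.0 in root, and 4398 and 3728 in leaf, a log2 difference of 5.49 ± 0.38 from root (adjusted p 4.07e-05). GLK1 read 1761 and 1622 against 70.8 and 85.4 in root (4.18 ± 0.52, adjusted p 0.00066). The blue-light receptor gene Osnph1a, a phototropin, read 2666 and 3739 against 615 and 617 (2.33 ± 0.31, adjusted p 0.000981). GI, which works in the circadian clock, was close on all 4 arrays at 9579, 8269, 6930 and 7295 (adjusted p 0.439). The photoreceptor and clock list also held GLK2 and GLK1, which are neither. Of its 17 genes tested, 6 were called higher, GLK2 and GLK1 among them, and none lower. Their median was 1.33, and 0.53 against root array 2 alone.

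The 6 pigment and carbon genes given first here were all called higher. RCAA1, which encodes Rubisco activase, read 22030 and 25822 in seedling against 1275 and 1487 in root, and its log2 difference of 4.10 ± 0.41 (adjusted p 0.000245) was near equal against the root arrays, at 4.21 and 3.99. PORA, a protochlorophyllide reductase, read 835 and 1589 against 104 and 42.4 (3.80 ± 0.56, adjusted p 0.00164). CHLH, the large subunit of magnesium chelatase, read 1430 and 2875 against 241 and 41.6. CAO, which makes chlorophyll b, read 2622 and 4333 against 609 and 538. GLN2, the chloroplast glutamine synthetase that recaptures photorespiratory ammonium, read 5578 and 11102 against 1344 and 564. GDCSH, a subunit of the glycine decarboxylase that acts in photorespiration, read 4020 and 8040 against 1155 and 147. Without seedling array 2 the adjusted p of CHLH was 0.0699, of CAO 0.0642, of GLN2 0.0798 and of GDCSH 0.0861. Other members did not rise: GLO1, a glycolate oxidase, read 1673 and 1755 against 2767 and 1726 with overlapping groups (adjusted p 0.515), and its relative GLO4 read 1584 and 1127 against 3542 and 2346. GLO4 was called lower (-1.10 ± 0.28, adjusted p 0.0222), but not without seedling array 2 or root array 1 (adjusted p 0.194 and 0.0785).

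The photosystem genes depended on which root array was read. CAB2R, a light-harvesting chlorophyll protein, read 20524 and 20713 in seedling, 15512 on root array 1 and 3976 on root array 2, and was not called (1.39 ± 0.83, adjusted p 0.27). RCABP89, of the same family, read 13054 and 17675 against 3227 and 556 (3.48 ± 0.92, adjusted p 0.0237). RCABP69 read 6542 and 9476 against 2527 and 261 (3.23 ± 0.96, adjusted p 0.0388). In all 3 root array 1 lay between root array 2 and the seedlings. PSAG, a photosystem I subunit, had level root arrays, with 2060 and 3843 against 353 and 333 (2.98 ± 0.39, adjusted p 0.000851).

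The same spread ran through electron transport and Rubisco. The plastocyanin gene PETE read 17346 and 18711 against 9562 and 2486, and was not called (1.88 ± 0.88, adjusted p 0.162). The ferredoxin gene ADI1 read 20562 and 26246 against 2789 and 712 (4.02 ± 0.90, adjusted p 0.0117), and ISP, the Rieske iron-sulphur protein of the cytochrome complex, read 7213 and 11234 against 2497 and 351 (3.23 ± 0.94, adjusted p 0.0347). RBCS, the small subunit of Rubisco, read 22229 and 23786 against 7774 and 1501 (2.74 ± 0.86, adjusted p 0.047). LFNR1, the leaf ferredoxin-NADP reductase, read 1541 and 4031 against 712 and 250 (2.51 ± 0.52, adjusted p 0.00795). Of the 2 further genes listed as FNR, 1 was called lower in seedling, at 1890 and 1477 against 4890 and 5405 (-1.61 ± 0.25, adjusted p 0.00187). The probe sets of RCABP69, ADI1, RBCS and GDCSH are of types that can also bind related transcripts. So are those of GLO4, GBSS1, GLUA-1, OSH1, CL27 and rps20, described elsewhere.

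Counted against 1 root array at a time, the chloroplast calls differed in number. Against root array 2 alone, 7 of the 8 photosystem genes were called higher, and against root array 1 alone 1 was. Electron transport had 5 and 2, the Calvin cycle list 7 and 4, and the chlorophyll list 11 and 10. The photosystem median was 4.54 against root array 2 and 1.40 against root array 1, and for chlorophyll synthesis it was 1.97 and 1.41. Without root array 2 the adjusted p was 0.129 for RCABP89, 0.203 for RCABP69, 0.0683 for ADI1, 0.189 for ISP and 0.249 for RBCS. These 5 calls were lost also without either seedling array, with the highest adjusted p at 0.207, and the LFNR1 call was lost without seedling array 2 (adjusted p 0.0928). Without seedling array 2 the 4 lists had 1, 0, 1 and 3 genes called higher, in the order photosystems, electron transport, Calvin cycle and chlorophyll, and without seedling array 1 they had 1, 2, 5 and 10.

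**Figure D2:**
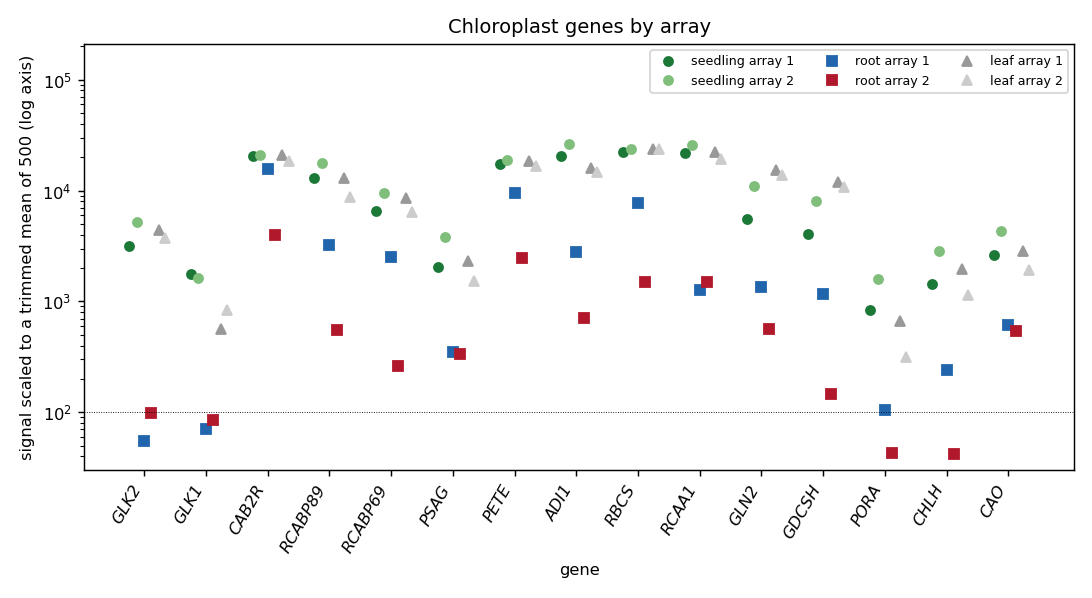
Signals of 15 chloroplast genes on the 2 seedling, 2 root and 2 leaf arrays, on a log axis, with a dotted line at 100. Root array 1 (blue) lies well above root array 2 (red) on CAB2R, RCABP89, RCABP69, PETE, ADI1, RBCS, GLN2, GDCSH, PORA and CHLH. The root arrays nearly coincide on PSAG, RCAA1 and CAO.

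Some developmental regulators were also called higher in seedling. Of all 16420 genes tested, 1987 were called higher and 1510 lower. The class IV homeodomain genes GL2-1, GL2-2 and GL2-3, relatives of the Arabidopsis GLABRA2 that works in the epidermis, were all called higher. GL2-1 read 2413 and 2212 against 278 and 144 (3.43 ± 0.34, adjusted p 0.00023). GL2-2 gave a log2 difference of 3.0 ± 0.40 and GL2-3 of 3.20 ± 0.60. Of 44 KNOX, WOX and HD-Zip genes tested, 7 were called higher and 2 lower, with a median of -0.10.

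The growth-regulating factors, which promote cell division in leaves, had 3 of 10 called higher and none lower. GRF4 read 493 and 346 against 45.8 and 17.4 (3.24 ± 0.38, adjusted p 0.000523), and GRF3 read 441 and 444 against 63.5 and 66.2 (2.50 ± 0.39, adjusted p 0.00202). Of 21 MADS-box genes, 1 was called higher and 2 lower, and the higher was MADS22, at 4202 and 4379 against 1005 and 986. The cytokinin-activating genes LOGL3 and LOGL9 were called higher, at log2 differences of 2.26 ± 0.31 and 2.34 ± 0.38. Of 30 cytokinin genes, 2 were called higher and 1 lower. For the MADS-box and cytokinin lists the share called higher was below that of all genes tested.

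Few cell division genes were called. Of 55 cell cycle and replication genes tested, 2 were called higher and 1 lower, and the median log2 difference was -0.19. PCNA, the sliding clamp of replication, read 1898 and 1757 in seedling, 2018 on root array 1 and 3894 on root array 2 (-0.61 ± 0.36, adjusted p 0.257). The B2 cyclin gene CYCB2-2 read 1068 and 922 against 1037 and 3160 (adjusted p 0.325), and CYCB2-1 read 812 and 648 against 787 and 1467 (adjusted p 0.391). On all 3 root array 2 alone stood high. The meristem gene OSH1 read 688 and 455 against 466 and 254 (adjusted p 0.259), with overlapping groups.

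Among the 10 named genes with the largest shared fall, membrane transport, iron and wall genes recurred. The aquaporin gene TIP2, of the vacuolar membrane, read 256 and 120 in seedling against 12397 and 16543 in root, a log2 difference of -6.22 ± 0.46 (adjusted p 5.36e-05). Its leaf signals were 133 and 136, between those of the seedling arrays. PRX112, a class III peroxidase, read 30.2 and 12.1 against 7198 and 1888 (-6.68 ± 0.76, adjusted p 0.000452). GST1, a glutathione S-transferase, read 556 and 255 against 6501 and 9130, and LOX1.1, a lipoxygenase, read 95.4 and 152 against 2033 and 1959. The probe sets of TIP2 and GST1, and those of NRT2.3, AKT1, SWEET11, OsCASPL2A1, IAA23, MADS22 and TIP3 described elsewhere, can bind related transcripts too.

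The aquaporin family split. Of 23 members tested, 5 were called lower and 3 higher, with a median of -0.29. Among the plasma membrane members, PIP2-4 and PIP1-3 were called lower and PIP2-7 higher. PIP2-4 read 1766 and 907 against 5957 and 19190 (-3.06 ± 0.59, adjusted p 0.0058), and PIP1-3 read 1905 and 1058 against 6020 and 11713 (-2.55 ± 0.44, adjusted p 0.0033). PIP2-7 had the largest rise of the family, at 1188 and 3966 against 37.3 and 321.5 (4.03 ± 1.05, adjusted p 0.0224). Its log2 difference was 5.36 against root array 1 and 2.70 against root array 2. The PIP2-7 call was lost without seedling array 2 and without root array 1. In the counts of named genes PIP2-7 stands with those not described. NIP1-1 was higher, at 7690 and 7413 against 400 and 925 (3.60 ± 0.36, adjusted p 0.000258), and so was TIP3, at 284 and 320 against 93.2 and 42.9. AQP, the member with the highest mean signal among those not called, read 24207 and 23072 against 18172 and 28402, with the root arrays on either side (0.06 ± 0.23, adjusted p 0.891), and its sign turned without root array 1, at -0.27. The PIP2-4 call was lost without seedling array 2 (adjusted p 0.0714).

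Of 3 silicon and aluminium uptake genes, Lsi2 and Nrat1 were called lower in seedling and Lsi1 was not called. Lsi1, the silicon importer of the outer root layers, read 9878 and 4725 in seedling, 17616 and 17769 in root, and 989 and 816 in leaf. It lay below both root arrays but did not pass the test (-1.37 ± 0.54, adjusted p 0.0984), and was called higher than in leaf (2.91, adjusted p 0.019). Lsi2, the silicon exporter that works with it, read 793 and 239 in seedling, 4613 and 5726 in root, and 1.69 and 6.43 in leaf (-3.50 ± 0.56 from root, adjusted p 0.00244). Nrat1, which takes up aluminium, read 1006 and 296 against 5751 and 4076 in root and 30.4 and 27.3 in leaf (-3.10 ± 0.53, adjusted p 0.00322). The 3 genes stood between leaf and root in seedling, and seedling array 1 was the higher each time. Of 45 genes for silicon, aluminium and metal transport, 8 were called lower and 2 higher, with a median of -0.72, which was -0.52 against root array 1 alone and -0.20 against root array 2 alone. Against root array 1 alone 15 were called lower.

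OsCASP1, whose Arabidopsis relatives build the Casparian strip of the endodermis, read 75.9 and 39.9 against 851 and 1176 (-3.83 ± 0.50, adjusted p 0.00091). The wider family of CASP-like membrane proteins had 6 of 22 members called lower and 3 higher, with 3 lower without seedling array 2. OsCASPL1U3 was lower, at 306 and 279 against 8126 and 3185, and OsCASPL2A1 was higher, at 6369 and 5510 against 592 and 481 (3.43 ± 0.21, adjusted p 2.59e-05). The 2 tissues did not overlap on these members, as on every called probe set.

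Nitrogen genes were lower more often than higher, with 8 of 24 called lower, 2 higher and a median of -1.06, which was -1.18 against root array 1 and -0.47 against root array 2. NRT2.3, a high-affinity nitrate transporter, read 8.95 and 39.6 in seedling, 2174 on root array 1 and 295 on root array 2 (-4.47 ± 0.86, adjusted p 0.00585). AMT2-2, an ammonium transporter, read 35.1 and 36.6 against 195 and 293 (-2.30 ± 0.43, adjusted p 0.00528). NIA1, a nitrate reductase, went the other way at 9982 and 12220 against 2604 and 2523 (2.1 ± 0.45, adjusted p 0.00971). The NRT2.3 call was lost without seedling array 1 (adjusted p 0.0514) and that of NIA1 without seedling array 2 (adjusted p 0.0937). Without seedling array 1 the list had 2 called lower, and without seedling array 2 it had 3.

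For phosphate, 2 of 14 genes tested were called lower and none higher. PHO1-2, a phosphate exporter that loads the xylem, read 1187 and 967 against 7619 and 12305 (-3.16 ± 0.48, adjusted p 0.00182). Potassium and sodium transport genes had 3 called higher and 3 lower of 25, with a median of 0.00. Among the lower was the potassium channel gene AKT1, at 347 and 373 against 1627 and 1160 in root and 1065 and 1315 in leaf (-1.89 ± 0.31, adjusted p 0.0027). Its seedling signals lay below both organs.

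**Figure D3:**
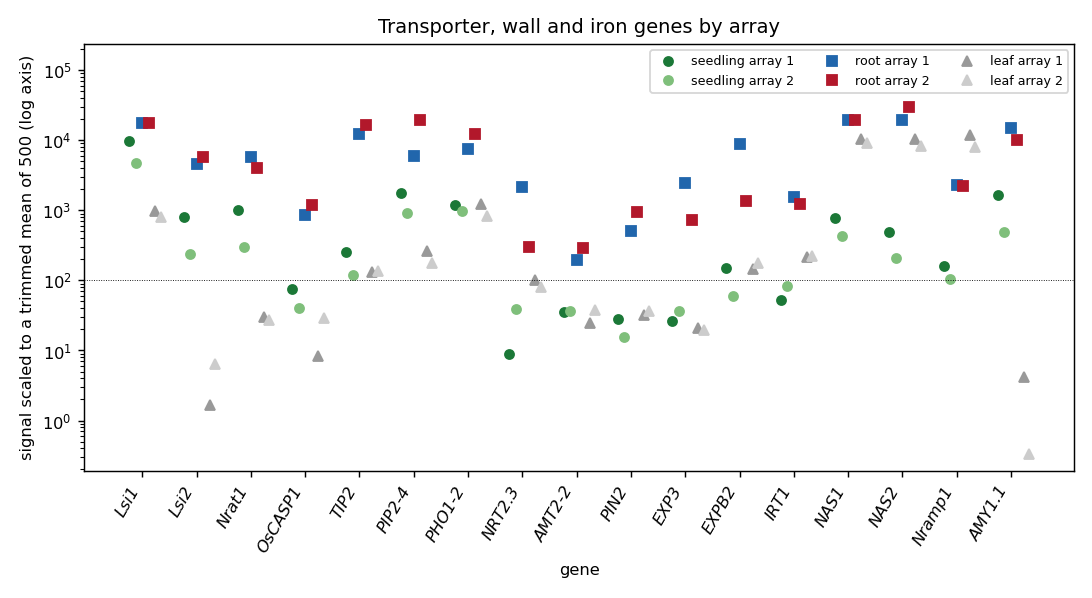
Signals of 17 transporter, wall and iron genes on the 2 seedling, 2 root and 2 leaf arrays, on a log axis, with a dotted line at 100. Seedling lies between leaf and root on Lsi1, Lsi2, Nrat1, AMY1.1, OsCASP1, PIP2-4 and EXP3. It lies below both on NAS1, NAS2, Nramp1, IRT1, NRT2.3 and PIN2.

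Of 21 iron genes tested, 9 were called lower and 1 higher, with a median of -0.75. The median reached -1.54 where a higher signal was asked of each probe set. Against root array 1 alone or root array 2 alone, 9 were again called lower and 1 higher. NAS2 and NAS1 make nicotianamine, the precursor of the phytosiderophores with which grasses bind iron. NAS2 read 491 and 211 in seedling against 19210 and 29620 in root (-6.14 ± 0.51, adjusted p 0.000105). NAS1 read 782 and 436 against 19356 and 19187 (-5.01 ± 0.42, adjusted p 9.73e-05). IRT1, the iron importer, read 52.2 and 84.3 against 1557 and 1218 (-4.07 ± 0.41, adjusted p 0.000258). Nramp1, an iron and metal transporter counted with the metal list, read 160 and 104 against 2270 and 2204 (-3.95 ± 0.39, adjusted p 0.000241). IDEF1, a regulator of the iron response, was the member called higher, at 718 and 806 against 241 and 210 (1.69 ± 0.28, adjusted p 0.00267).

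These iron genes were not only root genes in this survey. In leaf NAS2 read 10577 and 8401, NAS1 read 10396 and 9121, and Nramp1 read 11878 and 8128. The difference between the seedling and root contrast and the leaf and root contrast is seedling minus leaf, which was -4.80 for NAS2 (adjusted p 0.0015), -4.02 for NAS1 (adjusted p 0.0014) and -6.08 for Nramp1 (adjusted p 0.00021). The 10-day seedling was thus lower than both organs of 7-day plants on these 3 genes. Across all tested probe sets, 2.71% were called between seedling and leaf, 1.97% higher and 0.736% lower in seedling, and the comparison shares the seedling arrays with that against root.

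Wall-loosening genes were mostly lower. Of 23 expansin genes tested, 12 were called lower and 2 higher, with a median of -1.13. EXP3 read 26.5 and 37.2 in seedling against 2417 and 721 in root (-4.82 ± 0.62, adjusted p 0.000815). EXPB2 read 151 and 58.9 against 8921 and 1348 (-4.96 ± 0.74, adjusted p 0.00173). Root array 1 was the higher of the pair on both. Against root array 1 alone 10 were called lower and against root array 2 alone 8, and without seedling array 1 or 2 the number was 6 and 5. In the cellulose synthase superfamily 7 of 26 were called lower, or 2 without seedling array 1 and 3 without seedling array 2, and 2 were called higher. Among the lower was CSLC3, at 44.6 and 33.4 against 694 and 1689 (-4.33 ± 0.56, adjusted p 0.000851).

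Auxin genes were called in both directions, as were the genes tested as a whole, with 1987 of 16420 called higher and 1510 lower. PIN2, an auxin exporter of the root tip, read 28.4 and 15.5 against 501 and 961 (-4.25 ± 0.43, adjusted p 0.000262), and 5 of 22 auxin transport and synthesis genes were called lower and 1 higher, with 2 lower without either seedling array. Of 25 Aux/IAA repressors 6 were called lower and 3 higher, and without seedling array 2 they were 2 and 1. IAA12 read 425 and 377 against 3406 and 3860 (-3.13 ± 0.37, adjusted p 0.000575), and IAA23 gave -1.82 ± 0.31 (adjusted p 0.00322), while IAA14 was higher, as given above. Of 17 auxin response factors, 2 were called higher and 2 lower, with OsARF16 at -2.54 ± 0.37 and ARF24 at 1.79 ± 0.23.

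Of 5 haemoglobin and fermentation genes tested, 3 were called lower in seedling and none higher. PDC2, a pyruvate decarboxylase, read 4844 and 4189 against 13175 and 14363 (-1.61 ± 0.21, adjusted p 0.000939). PDC1 read 6.62 and 4.51 against 348 and 170, and the alcohol dehydrogenase gene Adh2 read 2547 and 1764 against 14290 and 12222 (-2.63 ± 0.63, adjusted p 0.0161). All 3 lay below both root arrays, as did every probe set called lower. The PDC1 and Adh2 calls were lost without either seedling array or without root array 1, at adjusted p values from 0.0554 to 0.127. NSHB2, a non-symbiotic haemoglobin, read 3919 and 4792 in seedling, 2425 on root array 1 and 206 on root array 2, and was not called (2.56 ± 0.84, adjusted p 0.0548), whereas against root array 2 alone it was (4.29, adjusted p 0.000617).

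Seedling array 1 read higher than seedling array 2 on AMY1.1 and RAB16D. AMY1.1, an alpha-amylase, read 1661 and 489 in seedling against 15001 and 10000 in root and 4.17 and 0.335 in leaf (-3.74 ± 0.53, adjusted p 0.00137). The dehydrin gene RAB16D read 1318 and 392 against 2594 and 1827 in root and 22.1 and 34.2 in leaf, and was not called (-1.57 ± 0.55, adjusted p 0.0674). Without seedling array 1 RAB16D was called (-2.42, adjusted p 0.0236). OsPM19L1, a membrane protein listed with the LEA and dehydrin genes, read 118 and 94.7 against 1775 and 902 (-3.40 ± 0.41, adjusted p 0.0006). In this list 2 of 9 were called lower and 2 higher. The higher were the dehydrin genes RAB21, at 7340 and 12291 against 4102 and 2323, and rab25, at 216 and 191 against 47.3 and 64.3. The seedling arrays were close on rab25 and on Dhn1, which read 5211 and 5604 against 9178 and 10762 and was not called (adjusted p 0.0524), and RAB21 was higher on seedling array 2. The RAB21 call was lost without seedling array 2 or root array 2 (adjusted p 0.195 and 0.110).

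Defence-type germin-like proteins and chitinases were split, with 4 of 19 called higher and 5 lower. Beside GER5, chia4a and Cht4, which were higher, GER4 and GER2 were lower. GER4 read 1008 and 566 against 8837 and 6614 (-3.31 ± 0.37, adjusted p 0.00042), and GER2 read 1214 and 593 against 11117 and 4602 (-3.05 ± 0.49, adjusted p 0.00249). The list median was -1.31 against root array 1 and 0.21 against root array 2.

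Heat shock genes were called higher in 9 of 42 cases and lower in 3, with a median of 0.34. Small heat shock proteins, chaperones that hold unfolding proteins, were called in both directions. HSP18.0 read 13800 and 11111 in seedling, 2134 and 1574 in root, and 618 and 729 in leaf (2.75 ± 0.38, adjusted p 0.00111). HSP17.9A read 18696 and 15614 against 3571 and 5538 (1.94 ± 0.25, adjusted p 0.000921). Both were above leaf as well, by 4.17 and 3.02 (adjusted p 0.00066 and 0.00049). HSP22.3 was lower in seedling, at 201 and 209 against 752 and 682 (-1.73 ± 0.33, adjusted p 0.00576), and so was HSP16.9A, at 844 and 615 against 4185 and 1580 (-1.81 ± 0.40, adjusted p 0.0114). The third member called lower was the heat shock factor HSF23, at 2141 and 1515 against 3757 and 5847. Without seedling array 2 these 3 calls were lost, at adjusted p values of 0.0529, 0.108 and 0.123. Without seedling array 1 the list had 3 called higher, without seedling array 2 it had 2, and against root array 1 alone it had 12.

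Ribosomal protein genes had 3 of 25 called in each direction, and a median of -0.64. Called higher were CL18, at 6175 and 10609 against 2852 and 876 (2.34 ± 0.46, adjusted p 0.0062), rpl5, with a log2 difference of 2.07, and CL27, with 1.55. These 3 calls were lost without seedling array 2, at adjusted p values of 0.0765, 0.228 and 0.0672, and that of rpl5 also without root array 2 (adjusted p 0.122). The members called lower included RPS26, at 4544 and 3032 against 10324 and 11298 (-1.54 ± 0.25, adjusted p 0.00284), and rps20, at 2805 and 2696 against 6856 and 8018 (-1.43 ± 0.19, adjusted p 0.000962). Of the other lists, gibberellin genes had 1 called in each direction of 12, JAZ repressors 2 lower of 12, diterpenoid phytoalexin genes 1 higher of 15, and amylase and sugar genes 3 higher and 2 lower of 32. Seed storage genes had 2 called lower of 10, NAC factors 1 lower of 7 and WRKY factors none of 6.

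**Figure D4:**
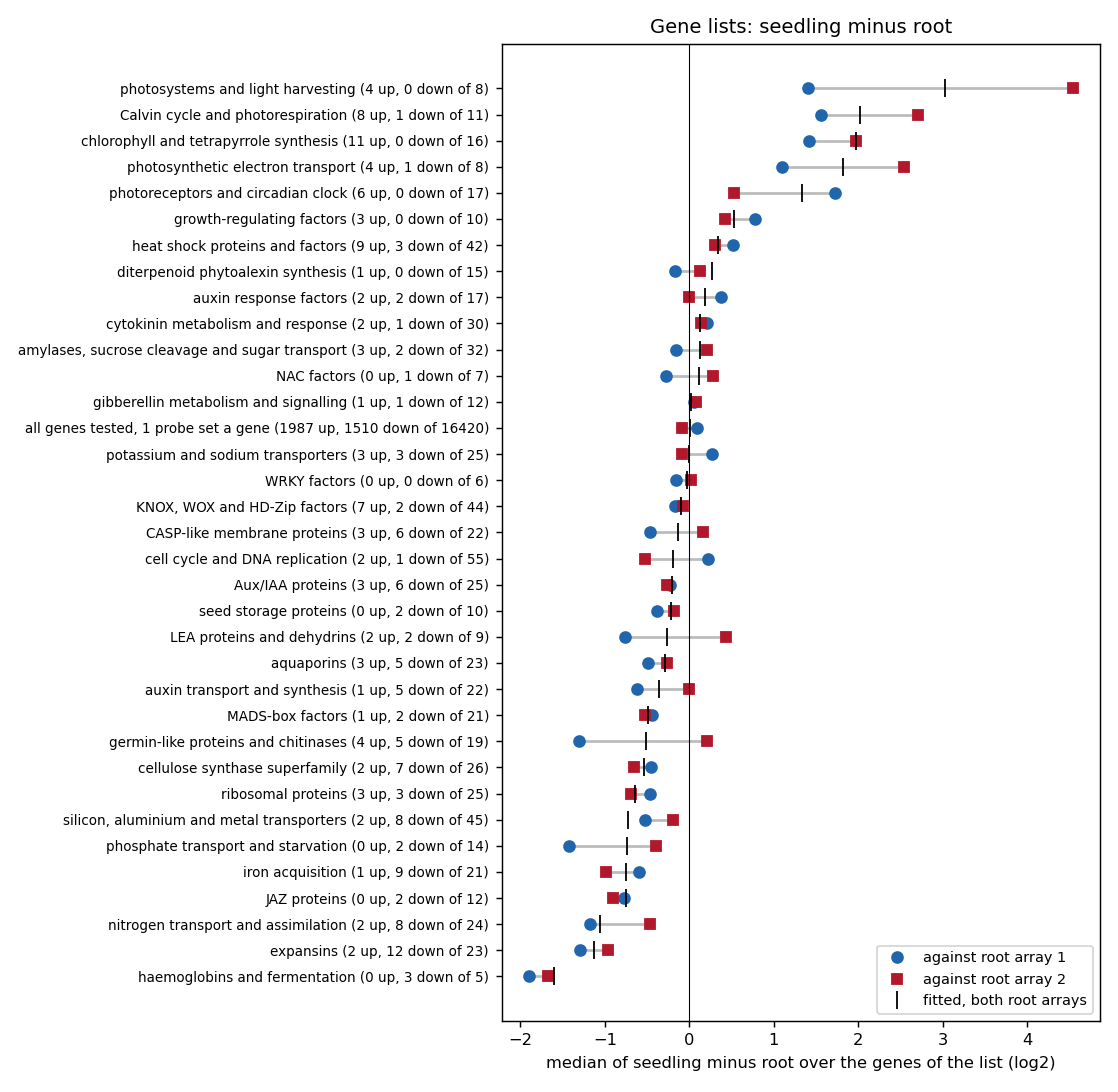
Median log2 difference, seedling minus root, over the genes of each list, against root array 1 (blue circles), root array 2 (red squares) and both in the fit (black bars), with the numbers called higher and lower of those tested. The photosystem list moves most between the root arrays, from 1.40 to 4.54, while the expansin list stays at -1.29 and -0.96.

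A small set of probe sets placed the 2 root arrays on opposite sides of both seedling arrays by at least 2-fold each. On 65, or 0.217% of those tested, root array 1 was the high one, and on 14, or 0.0466%, root array 2 was. Only 5 named genes were among them, and none was called; the probe sets of PAL and HSF11 can bind related transcripts. COPT1, a copper transporter, read 2424 and 2076 in seedling, 7090 on root array 1 and 756 on root array 2. PAL, the entry enzyme of phenylpropanoid synthesis, read 4126 and 3402 against 13217 and 1305. HIRL1 read 57.4 and 25.3 against 282 and 3.16. The heat shock factors HSF11 and HSF1 were the other way round, HSF11 at 819 and 518 against 70.9 and 2614, and HSF1 at 944 and 842 against 334 and 2023. For these genes a difference between seedling and root has no direction that both root arrays share.

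**Figure D5:**
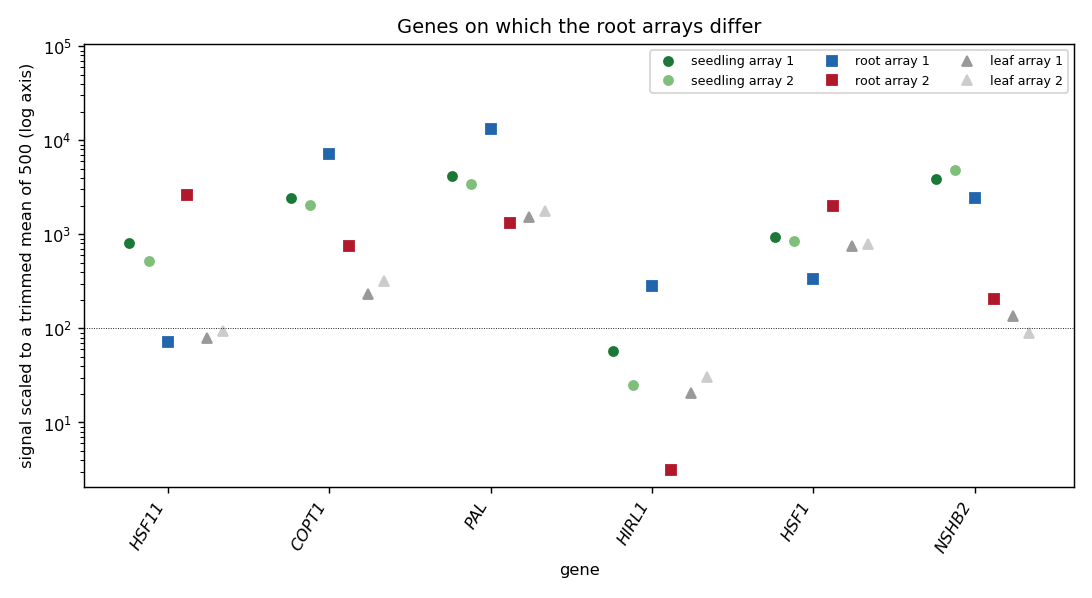
Signals of the 5 named genes on which the root arrays lie on opposite sides of the seedling arrays, and of NSHB2, on the 2 seedling, 2 root and 2 leaf arrays, on a log axis. Root array 1 (blue) is highest of the 4 on COPT1, PAL and HIRL1, and root array 2 (red) on HSF11 and HSF1.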

How the data were processed

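Total RNA of each sample was hybridised to an Affymetrix rice genome array. Intensity values were deposited by the authors as MAS5 signals on a linear scale, per the submitters' processing notes; the version is not given in the sources used here. Detection calls were not used here. Signals were multiplied so that every array's mean between its 2% and 98% quantiles was 500, and log2 of signal plus 16 was taken, and probe sets at 100 or more on at least 2 of 10 arrays were tested. Folds of dim genes depend on the pseudocount. The 187 control probe sets were left out. One mean per tissue was fitted over the 10 arrays with limma 3.58.1 in R 4.3.3 (lmFit, eBayes with trend) and Benjamini-Hochberg adjustment. The fit was also run on simulated data with the same spread for every probe set and tissue. Such data cannot show how the fit does where the root arrays disagree. Genes came from the platform table joined to RefSeq names: 22436 probe sets had 1 gene, 95 several and 34663 none. Each list gene was represented by its probe set with the highest mean. Named genes were those fixed by name and those with the largest difference shared by both root arrays; in each list the 3 highest and lowest calls and the brightest member not called. Which of these the text describes was decided after their values and left-out fits were seen, and so were the Gapdh probe sets of the covariate. Members and lists were chosen with earlier results of these data known. Same-numbered seedling and root arrays deviated with a correlation of -0.05, and the labels give no pairing. Alternatives are given in the closing section. With 2 arrays a tissue, their number limits the precision.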

Additional observations from a re-analysis of the deposited data

How the results depend on the processing

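Both counts of called probe sets stayed within 1.5 times their value under the pseudocounts, the median and quantile scalings, the signal filters, array weights, no trend, the Gapdh covariate, and without probe sets that may cross-hybridise. Scaling to the hybridisation spike-ins gave 1466 lower. The treat test against 2-fold left 760 higher and 389 lower, an adjusted p under 0.01 left 1615 and 1128, and the 4 arrays alone left 2070 and 1532. Leaving out 1 array gave 1101 to 3895 higher and 779 to 2792 lower, with both minima without seedling replicate 2. With the replicate block the counts were 3247 and 2325, and 2 of the 142 called genes that the naming rule gives lost their call, RBCS among them at an adjusted p of 0.0591; no pairing is stated by the labels.

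Calls at least 2-fold the same way against each root array numbered 4932, against 1149 with treat, 2696 at 0.01 and 1871 to 3099 without a seedling array. Probe sets called between seedling and leaf numbered 812, against 527 with pseudocount 1, 386 with spike-in scaling, 3592 with array weights, 174 with treat, 296 at 0.01, and 114 to 1268 without 1 array. The settings for these 2 counts were chosen after seeing the data.

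Of those 142 genes, none turned in direction and 71 kept the call in every setting but treat. Calls were lost for 67 without seedling replicate 2, 29 without seedling replicate 1, 21 without root replicate 1, 14 without root replicate 2, 85 with treat, 39 at 0.01, 25 with the 4 arrays alone and 21 with spike-in scaling. The 90 described in the report were picked with these losses known: 63 of them and 8 of the other 52 kept the call, so the rate among the 90 is no measure of stability. Among genes not called, the Gapdh covariate turned HSF11 (-0.31), COPT1 (0.44), PAL (0.35), HIRL1 (0.15), HSF1 (-0.29) and AQP (-0.0455). COPT1 also turned with median scaling (0.0125), HIRL1 with pseudocount 1 (0.19) and HSF1 with quantile normalization (-0.0235). Without 1 array HSF11 ranged over -1.98 to 2.94, COPT1 -1.65 to 1.55, PAL -1.81 to 1.51, HIRL1 -2.44 to 1.52, HSF1 -1.17 to 1.37 and AQP -0.27 to 0.38. The cause was not tested.

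Of 782 pairs of list and setting, the list median moved by more than its spread over pairs of arrays in 45 and changed sign in 23. The iron median moved in 6 settings and reached -1.54. Detection calls were not used here, so how far dim probe sets stood above background is unknown.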
